A study of Bos taurus with 3 samples.

Results

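Ezrin, radixin and moesin (EZR, RDX and MSN) form the ERM family, and the CDC42EP proteins are effectors of the small GTPase CDC42. The genes examined were these 3 ERM linkers, their relative merlin (NF2), the scaffold NHERF1, CDC42 itself and the effectors CDC42EP2, CDC42EP3 and CDC42EP5. A gene was included where a probe set of the array carried its symbol as the only one, and where a gene had more than 1 such probe set the one of highest mean over the 3 arrays was used. In this way 6 of the 9 genes were measured, out of 9155 genes with a named probe set. NF2, CDC42 and CDC42EP5 were not analysed here. The set was chosen with the difference between the cultured cells described below in view, since EZR, NHERF1 and CDC42EP3 were already known to be over 3-fold apart in these arrays. The values of the 6 genes are therefore given as a description and were not tested.

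The study compared fetal somatic cells with adult stroma. The fetal cells were Gonadal Ridge Epithelial-Like (GREL) cells, polygonal cells grown from collagenase-dispersed bovine fetal ovaries (Bos taurus), with 2 clonally enriched isolates (GREL isolates 1 and 2). The labels give both an estimated age of 130 days of gestation, and the methods of the study put isolate 1 at a slightly earlier day. They were set against 1 fibroblast culture grown out of the medulla of an adult ovary, over 1 year old by its label. All 3 were grown in the same medium with fetal calf serum, and each was hybridized to 1 Affymetrix Bovine Genome Array, so cell type, fetal or adult age and culture cannot be told apart. Values are RMA intensities on the log2 scale, rounded by the depositors to steps of 0.1.

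Ezrin, radixin and moesin bind membrane proteins through an N-terminal FERM domain and actin filaments through their C-terminus, and become active when phosphatidylinositol bisphosphate and a phosphorylation open the folded protein. Ezrin is the ERM protein best known from epithelia, where it supports microvilli, and moesin is prominent in endothelium and blood cells. NHERF1 (also called EBP50) is a PDZ scaffold that ties membrane transporters and receptors to ezrin below the apical membrane. CDC42 controls filopodia and cell polarity, and the CDC42EP (Borg) proteins bind its active form through a CRIB motif and act on septins and actin.

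The arrays had medians of 3.0 and 2.9 in GREL isolates 1 and 2 and of 2.9 in the fibroblasts. Over 24016 probe sets limma called 0 (0%) at an adjusted p under 0.05, against 2354 higher and 2666 lower at an unadjusted p under 0.05, and a one-way ANOVA, over the 20503 probe sets where it could be run, called 0 as well, with 186 and 208 unadjusted. With a robust prior limma called 1189. With 1 fibroblast array the spread came from the 2 isolates alone, so a gene was counted as different where both isolates lay more than 3-fold from the fibroblasts in the same direction. As a guide to dim signal, the 95th percentile of 59 genes typical of other organs was 7.66 and 7.49 in the isolates and 8.13 in the fibroblasts, and the 90th was 4.76 and 4.82 in the isolates and 5.34 in the fibroblasts. These are called the upper and the lower background level. The upper one falls between the third and the fourth brightest of these genes. In the fibroblasts the lower one falls between SAG (5.2) and SST (5.9). SST was itself over 3-fold lower in both isolates, so fibroblast values just under 5.34 are not firmly background.

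Of the 6 measured genes 3 (EZR, NHERF1 and CDC42EP3) were over 3-fold above the fibroblasts in both GREL isolates, and 0 were over 3-fold lower. Of all 9155 genes 2.38% were over 3-fold higher by the same count and 2.38% over 3-fold lower, and nothing is read from the comparison because the genes were picked on this difference. By any amount 5 of the 6 were higher in both isolates, against 41.6% of all genes, and 1 (MSN) was lower in both, against 33.5%. The median difference of the 6 was 1.20 on the log2 scale, beside 0.05 over all genes. For the same reason nothing is read from these comparisons. In each of the 6 the isolates lay at most 0.2 apart, which was the median gap between isolates over all genes.

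**Figure D1:**
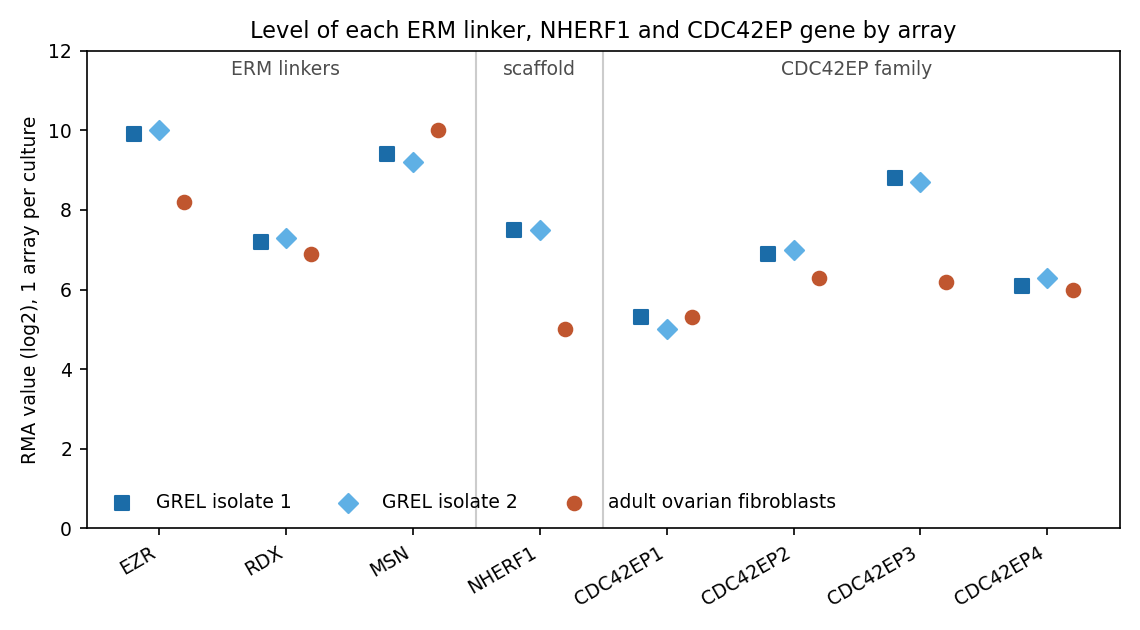
RMA value on the log2 scale (vertical axis) of each ERM linker, NHERF1 and each measured CDC42EP gene (horizontal axis) in GREL isolate 1 (squares), GREL isolate 2 (diamonds) and adult ovarian fibroblasts (circles), 1 array per culture. The fibroblast circle lies well below both isolates in EZR, NHERF1 and CDC42EP3 and above both in MSN, and levels should be compared within a gene only.

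Ezrin, read by 1 probe set, had a log2 value of 9.9 for GREL isolate 1 and 10.0 for isolate 2, against 8.2 in the fibroblasts. It was bright on every array, above the upper background level in both isolates and in the fibroblasts. The differences were 1.7 and 1.8 on the log2 scale, or 3.25-fold and 3.48-fold, which lies just inside the 3-fold threshold. Among all genes ordered by the mean difference EZR ranked 216, with 97.4% of genes below it.

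Moesin, read by 1 probe set, went the other way. It was at 9.4 and 9.2 in the isolates, against 10.0 in the fibroblasts, a log2 difference of -0.6 and -0.8. The fibroblast value was thus 1.52-fold and 1.74-fold above those of the isolates, well short of the 3-fold threshold. MSN was bright on all 3 arrays, and 10.2% of genes had a lower difference.

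Radixin was the ERM member with the smallest difference. Its 1 probe set was at 7.2 and 7.3 in the isolates against 6.9 in the fibroblasts, which is 1.23-fold and 1.32-fold. It lay below the upper background level and above the lower one on all 3 arrays.

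Taken within each array, where a scaling of the whole array cancels, EZR relative to MSN was 2.3 and 2.6 log2 units higher in the isolates than in the fibroblasts (4.92-fold and 6.06-fold). EZR relative to RDX was 1.4 log2 units higher in both, and RDX relative to MSN 0.9 and 1.2 units higher. EZR entered the set with its difference known, so the ratios of EZR restate that choice and are a description. They do not give the amount of any transcript, since probe sets differ in how brightly they read a transcript.

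NHERF1, the scaffold that binds ezrin, was at 7.5 in both isolates and at 5.0 in the fibroblasts, 5.66-fold in each. The fibroblast value lay below both background levels (8.13 and 5.34), so the size of the fold is uncertain, while the isolates lay above the lower level and close to the upper one (7.66 and 7.49). The related scaffold NHERF2 was at 2.6 and 2.5 in the isolates and 3.0 in the fibroblasts, dim on all 3 arrays. Another PDZ scaffold of this family, PDZK1, was at 1.5 on every array.

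CDC42EP3 and NHERF1 had the largest differences of the 6 genes, and in isolate 2 both were 2.5 on the log2 scale. The 1 probe set of CDC42EP3 was at 8.8 and 8.7 in the isolates, above the upper background level, and at 6.2 in the fibroblasts, below it. The folds were 6.06 and 5.66. CDC42EP2 was at 6.9 and 7.0 in the isolates and 6.3 in the fibroblasts, 1.52-fold and 1.62-fold. Its second probe set was dim, at 3.5 in both isolates and 3.6 in the fibroblasts, so that the small difference of CDC42EP2 was not seen there and had the opposite sign (-0.1 in both).

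Of the rest of the CDC42EP family CDC42EP1 and CDC42EP4 were measured. CDC42EP1 was at 5.3 and 5.0 in the isolates, below the upper background level, and 5.3 in the fibroblasts, below both levels, and CDC42EP4 at 6.1 and 6.3 in the isolates and 6.0 in the fibroblasts. Within each array CDC42EP3 was higher in the isolates relative to CDC42EP2 by 2.0 and 1.8 log2 units and relative to CDC42EP4 by 2.5 and 2.2. CDC42EP2 and CDC42EP4 lay between the background levels on every array, and CDC42EP3 entered the set with its difference known, so these values are a description.

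**Figure D2:**
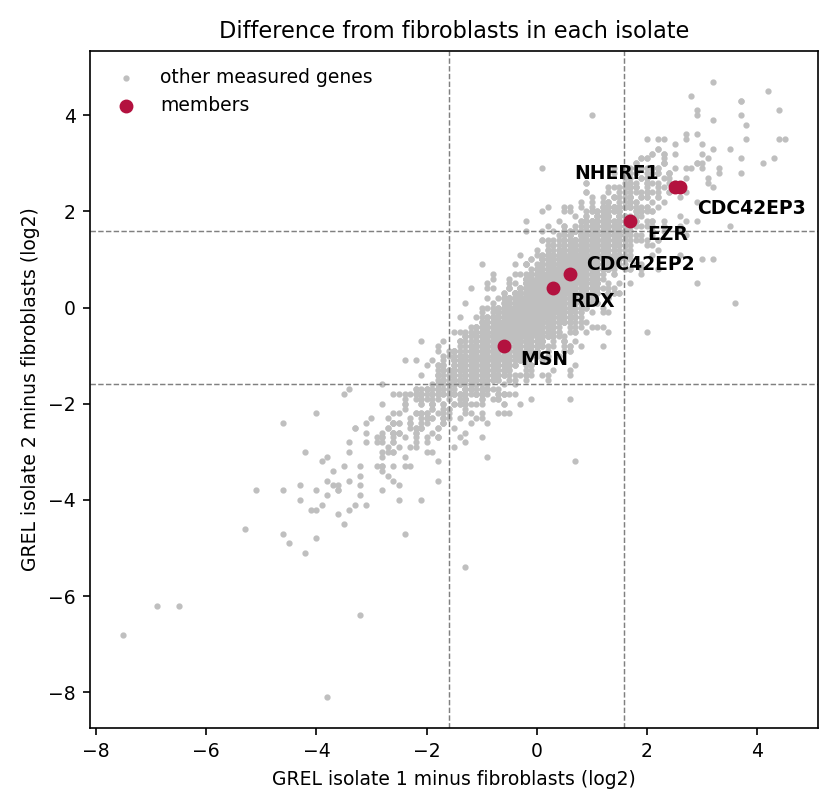
Log2 difference from the fibroblasts in GREL isolate 1 (horizontal axis) and GREL isolate 2 (vertical axis) for each of 9155 genes (grey), with the 6 measured ERM and CDC42 genes in red and dashed lines at 3-fold. EZR, NHERF1 and CDC42EP3 lie beyond 3-fold in both isolates, and MSN is the 1 red point below 0 on both axes. Both axes share the single fibroblast array, so their agreement is not independent.

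Other genes had nearly the same pair of differences. Within a distance of 0.2 (Euclidean, over the differences of the 2 isolates) lay 27 genes for EZR, 9 for NHERF1 and 7 for CDC42EP3. Nearest to EZR were ID2, ABRACL and HMGB1, nearest to NHERF1 were CDC42EP3, BEX5 and ITPR3, and nearest to CDC42EP3 were TRIM6, SELP and NHERF1. TRIM6 and SELP lay below the lower background level on all 3 arrays, and BEX5, ITPR3 and ABRACL did so in the fibroblasts, so their differences are uncertain. With 3 arrays this likeness rests on 2 differences per gene.

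The cultures were checked against markers of the labelled cell types. Of 7 epithelial markers 3 (KRT19, CDH3 and KRT7) were over 3-fold higher in both isolates and 0 were over 3-fold lower, with summed log2 values of 46.3 and 42.8 in the isolates and 30.1 in the fibroblasts. KRT19, a keratin of simple epithelia, was at 11.3 and 11.6 in the isolates and 7.1 in the fibroblasts, and KRT18 was at 11.4 and 11.8 in the isolates and 10.4 in the fibroblasts. Of 8 fibroblast markers all were lower in both isolates, 2 of them (TCF21 and PDGFRA) over 3-fold, with sums of 61.1 and 55.5 in the isolates and 72.6 in the fibroblasts. At a dim further probe set of PDGFRA the isolates were at 1.8 and 2.3 and the fibroblasts at 2.1, and at another the isolates were at 1.7 and 1.5 and the fibroblasts at 1.9. DCN was at 10.8 and 10.1 in the isolates and 11.4 in the fibroblasts, and COL1A1 at 8.7 and 7.4 in the isolates and 9.7 in the fibroblasts, so these stromal transcripts were read in the GREL cultures too. Of the 7 epithelial markers 6 were higher in both isolates, beside 41.6% of all genes. The other, CDH1, was at 4.7 and 3.2 in the isolates and 3.6 in the fibroblasts. CDH1, EPCAM and KRT8 were below the lower background level on every array, as KRT7 was in isolate 1 and the fibroblasts. The fibroblast markers were all lower in both isolates, beside 33.5% of all genes. EZR, NHERF1 and CDC42EP3 were picked as higher in the isolates, so their direction relative to both sets of markers was fixed beforehand. The part of these markers in the differences of EZR, NHERF1 and CDC42EP3 was not tested. In such bulk RNA a smaller share of a cell type cannot be told apart from less RNA per cell.

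Moesin is abundant in endothelial and blood cells, and markers of these were dim throughout. Whether such cells had a part in the difference of MSN was not tested. Of 6 endothelial markers none exceeded 2.6 in the isolates or 3.0 in the fibroblasts, with sums of 10.6 and 12.0 in the isolates and 12.1 in the fibroblasts. Of 6 blood markers none exceeded 2.8 in the isolates or 2.6 in the fibroblasts, with sums of 11.0 and 13.1 in the isolates and 12.5 in the fibroblasts. PECAM1, VWF and PTPRC, which define these cells, lay at 2.1 or lower on every array. Of 5 smooth muscle markers 4 lay above the upper background level on every array and MYH11 was dim, with ACTA2 at 10.4 and 10.7 in the isolates and 10.5 in the fibroblasts. All 5 granulosa cell markers were dim, with FOXL2 at 1.9 and 2.0 in the isolates and 1.8 in the fibroblasts. The study stained FOXL2 protein in GREL cells of fetal ovary sections too, so FOXL2 is not a marker of granulosa cells alone. Its RNA was thus dim in cultures labelled as GREL cells, and the reason was not tested. Of 3 germ cell markers 1 (KIT) was over 3-fold lower in both isolates, though not at all of its probe sets. The others, POU5F1 and ZP3, were dim on every array, and no cell type is read from KIT alone. Of 2 mesothelium markers (MSLN and UPK3B) 0 were over 3-fold apart.

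Among the measured genes of a list of ERM partners, differences of the size of those of EZR and NHERF1 were seen only in the other direction. Of these 14 genes, listed as membrane partners and scaffolds and with MSLN among them, 0 were over 3-fold higher in both isolates. ICAM1 and SDC2 were the 2 over 3-fold lower, and the median log2 difference of the 14 was -0.38. ICAM1, an adhesion molecule that ERM proteins anchor, was at 4.2 and 3.7 in the isolates, below both background levels, and 7.0 in the fibroblasts. SDC2, a syndecan proteoglycan, was at 5.2 and 5.1 in the isolates and 7.1 in the fibroblasts, and at a second probe set at 5.4 and 5.2 in the isolates and 6.4 in the fibroblasts, a smaller difference. CD44, the hyaluronan receptor and a classic ERM ligand, was at 8.3 in both isolates and 9.2 in the fibroblasts, and PDPN at 8.4 in both isolates and 8.9 in the fibroblasts. Of the genes in this list only MSLN and the chloride channel CFTR, which binds NHERF1, were higher in both isolates. MSLN is the surface protein used above as a mesothelium marker, and no binding of it to ERM proteins is claimed here. MSLN was at 8.5 and 8.4 in the isolates and 7.7 in the fibroblasts, and CFTR at 6.7 and 6.6 in the isolates and 5.9 in the fibroblasts. A second, dim probe set of CFTR was at 1.9 and 2.0 in the isolates and 2.3 in the fibroblasts. CD44, PDPN, MSLN and CFTR were singled out after their values were seen. The measured list is not complete, and nothing is read from it for partners outside it. The study reports podocalyxin (PODXL) as higher in GREL cells, and PODXL was not among the measured genes of this list.

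Of 9 measured genes listed with the switching of ERM proteins (kinases, phosphatase subunits and a lipid kinase) 0 were over 3-fold higher in both isolates and 1, MYLK, was over 3-fold lower, and the median difference was 0.35. MYLK, the myosin light chain kinase, is not an ERM kinase, and among the other 8 genes 0 were over 3-fold apart. It was at 8.0 and 7.0 in the isolates and 10.6 in the fibroblasts, and its second probe set at 7.6 and 6.4 in the isolates and 11.0 in the fibroblasts. STK10, a kinase of ERM proteins in lymphocytes, was at 7.0 and 6.9 in the isolates and 6.6 in the fibroblasts. ROCK2 was at 5.6 and 5.5 in the isolates and 5.5 in the fibroblasts, and at a second probe set at 4.8 and 5.0 in the isolates and 5.5 in the fibroblasts. PPP1CB, the catalytic subunit of myosin phosphatase, was at 8.4 in both isolates and 7.7 in the fibroblasts. STK10, ROCK2 and PPP1CB were named for their roles after their values were seen.

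Merlin itself was not analysed here, and of 10 genes of the Hippo pathway on which it acts 0 were over 3-fold apart in either direction, with a median difference of 0.28. The transcription factors TEAD2 and TEAD4 had the largest differences, at 5.1 in both isolates and 3.9 in the fibroblasts for TEAD2 and at 4.9 and 5.3 in the isolates and 4.0 in the fibroblasts for TEAD4. CCN1, CCN2 and ANKRD1, targets of the pathway, were bright in all cultures. CCN1 was at 9.8 and 9.7 in the isolates and 10.0 in the fibroblasts, CCN2 at 11.4 in both isolates and 10.8 in the fibroblasts, and ANKRD1 at 10.8 and 10.9 in the isolates and 10.8 in the fibroblasts. These 5 genes were chosen after their values were seen.

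**Figure D3:**
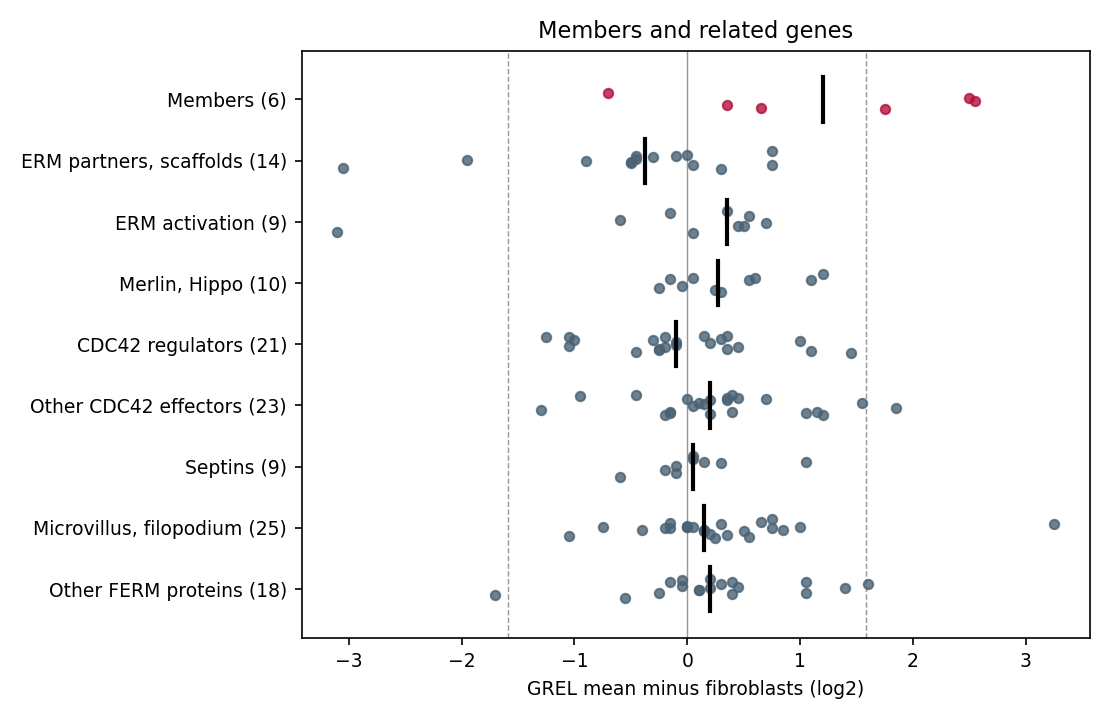
Mean log2 value of the 2 GREL isolates minus that of the fibroblasts (horizontal axis) for each gene (points) of the 6 measured members and of 8 related lists, with gene numbers in brackets, the median as a black bar and dashed lines at 3-fold. The members' median is 1.20 and those of the lists lie between -0.38 and 0.35. EZR, NHERF1 and CDC42EP3 were picked for their difference, which raises the members' median, so nothing is read from this comparison. The point of EPB41L4A at 1.60 among the other FERM proteins is not counted as over 3-fold, since isolate 1 was at 1.4, short of 3-fold.

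Among regulators of CDC42 0 were over 3-fold apart in both isolates. Of 21 measured exchange factors, GTPase-activating proteins and GDIs 7 were higher in both isolates and 9 lower, with a median difference of -0.10 and a range from -1.25 to 1.45. At 2-fold, 1 was higher (DOCK11, an exchange factor, at 6.8 and 6.5 in the isolates and 5.2 in the fibroblasts, over 3-fold in isolate 1 only) and 1 lower (DNMBP, another exchange factor, at 3.1 and 3.2 in the isolates and 4.4 in the fibroblasts), against 5.80% and 4.78% of all genes. A second, dimmer probe set of DNMBP was at 1.3 and 1.6 in the isolates and 1.2 in the fibroblasts.

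Effectors of CDC42 outside the measured members numbered 23, of which 1, PRKCZ, was over 3-fold higher in both isolates and 0 were over 3-fold lower. PRKCZ, an atypical protein kinase C of the PAR polarity complex, was at 3.3 and 3.8 in the isolates and 1.7 in the fibroblasts, below the lower background level on all 3 arrays, so its fold is uncertain. With each array centred on its median, PRKCZ was no longer over 3-fold higher and the count was 0. Over 2-fold higher were 4 of the 23, namely PRKCZ, IQGAP3, PRKCI and FNBP1L, beside 5.80% of all genes. Over 2-fold lower was 1, the formin FMNL3, beside 4.78% of all genes. FMNL3 was at 4.8 and 4.4 in the isolates and 5.9 in the fibroblasts. PRKCI, the second atypical kinase, was at 6.1 and 6.3 in the isolates and 5.0 in the fibroblasts. FNBP1L, a membrane-bending activator of N-WASP, was at 6.2 and 6.1 in the isolates and 5.0 in the fibroblasts, and its second probe set was at 5.7 and 5.4 in the isolates and 4.0 in the fibroblasts. IQGAP3 was at 4.6 and 5.1 in the isolates and 3.3 in the fibroblasts, but at a second probe set at 2.1 and 2.0 in the isolates and 2.2 in the fibroblasts. The kinase PAK4 was at 5.4 and 5.3 in the isolates and 4.3 in the fibroblasts, while N-WASP (WASL) was at 5.9 in both isolates and 5.8 in the fibroblasts. IQGAP3, PRKCI, FNBP1L, FMNL3, PAK4, WASL, DOCK11 and DNMBP were chosen after their values were seen.

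Of 9 measured septins, the filament proteins on which CDC42EP proteins act, 0 were over 3-fold apart in both isolates, and their differences ranged from -0.60 (SEPTIN10) to 1.05 (SEPTIN4) with a median of 0.05. SEPTIN4 was dim, at 2.4 and 2.7 in the isolates and 1.5 in the fibroblasts, and SEPTIN10 was at 6.6 and 6.8 in the isolates and 7.3 in the fibroblasts. SEPTIN2 was at 9.2 and 9.1 in the isolates and 9.1 in the fibroblasts, and SEPTIN7, a core subunit of septin filaments, at 9.3 and 9.5 in the isolates and 9.5 in the fibroblasts. SEPTIN2 and SEPTIN7 were bright on every array, and all 4 were chosen after their values were seen.

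Of 25 genes of the microvillus and filopodium core 1, PLS1, was over 3-fold higher in both isolates and 0 were over 3-fold lower, with a median difference of 0.15. PLS1, the fimbrin of epithelial microvilli, was at 4.9 and 5.6 in the isolates and 2.0 in the fibroblasts, a difference of 2.9 and 3.6 on the log2 scale (7.46-fold and 12.1-fold). The fibroblast value was dim and the isolates lay between the 2 background levels, so its size is uncertain. PLS3, the plastin of other solid tissues, was at 7.7 and 7.6 in the isolates and 7.6 in the fibroblasts. VIL1, the villin of intestinal and renal microvilli, was at 1.5 on every array. Of the Arp2/3 subunits ACTR3 and ARPC1A had the largest mean differences. ACTR3 was at 9.8 and 9.9 in the isolates against 9.1 in the fibroblasts, and ARPC1A was at 8.4 and 8.5 in the isolates against 7.6 in the fibroblasts. ARPC3 was lower, at 5.8 in both isolates against 6.0 in the fibroblasts, and ARPC5 was at 9.0 and 8.8 against 8.9. The remaining measured subunits had mean differences between those of ARPC5 and ACTR3. PLS3, VIL1, ACTR3, ARPC1A, ARPC3 and ARPC5 were chosen after their values were seen.

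Of 18 other proteins with a FERM domain 0 were over 3-fold higher and 1, TLN1, was over 3-fold lower, with a median difference of 0.20. TLN1 (talin), which links integrins to actin, was at 6.5 and 6.3 in the isolates and 8.1 in the fibroblasts, and at a dimmer probe set at 3.5 and 3.1 in the isolates and 3.7 in the fibroblasts. Kindlin-2 (FERMT2), another integrin activator, was at 7.9 and 7.8 in the isolates and 8.0 in the fibroblasts. At its second, similarly bright probe set it was at 7.8 and 7.5 in the isolates and 8.3 in the fibroblasts, a larger difference. EPB41L4A was at 5.4 and 5.8 in the isolates and 4.0 in the fibroblasts. FERMT2 and EPB41L4A were chosen after their values were seen.

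Over the 8 related lists together, without the 6 members, 129 genes were measured, of which 2 (1.55%) were over 3-fold higher in both isolates and 4 (3.10%) over 3-fold lower, beside 2.38% of all genes in each direction. Their median difference was 0.15.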

How the data were processed

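RNA of 3 cultures was labelled with the 3′ IVT Express kit and hybridized to Affymetrix GeneChip Bovine Genome Arrays, 1 array each. The log2 values deposited by the authors come from RMA background subtraction and quantile normalization and are rounded to steps of 0.1. They were made in Partek 6.5 per the submitters' processing notes. No detection calls came with them and no genome build is given in the sources used here, so no coordinates are reported. All value columns were matched to samples and 0 were unused. Of 24128 probe sets 112 controls were left out. The platform annotation gave 1 symbol for 13292 probe sets and several for 86, and 10638 were unnamed here.

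Differences are GREL minus fibroblasts. limma 3.58.1 (R 4.3.3) was fitted to all 24016 probe sets with Benjamini-Hochberg adjustment, with 1 residual degree of freedom, the single fibroblast culture being assumed to vary like the isolates. Run on simulated arrays of the same design and 24016 probe sets, it recovered mean log2 differences of 1.62 for 100 changed 3-fold and 3.03 for 100 changed 8-fold and called 0 of either. The simulated spreads were those of the isolates, slightly widened and shuffled over probe sets, so they were not tied to the level of a probe set. The 0 calls hold for that setting only. The p-values of limma measure the spread between 2 cultures only. In 3513 probe sets the isolates round to the same value. Python 3.11.15 with pandas 2.3.3 was used for the rest. Named were all measured members, CDC42EP1 and CDC42EP4, the 3 nearest genes of EZR, NHERF1 and CDC42EP3, cell type markers, and up to 2 genes per list and direction over 3-fold in both isolates. A further list of related genes is not reported here. Other names are marked as chosen after their values were seen. The members, lists and tests were chosen with earlier results of these data known. The alternatives were another normalization, probe set rule, fold threshold, dim-signal filter or prior, and leaving out either isolate. Precision is limited by the number of arrays.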

Additional observations from a re-analysis of the deposited data

How the results depend on the processing

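EZR, NHERF1 and CDC42EP3 were the members over 3-fold higher in both isolates under a repeated quantile normalization and under centring of each array on its median, and 0 were over 3-fold lower. The values were already quantile normalized and the array medians were 3.0, 2.9 and 2.9, so these settings could change little. They are a weak check, above all for NHERF1 and CDC42EP3. Under centring the mean log2 difference of EZR was 1.7, near the 3-fold threshold. EZR, NHERF1 and CDC42EP3 have 1 probe set each, so the mean or the dimmest of a gene's probe sets could not change them. A 2-fold threshold or leaving out either isolate could not remove them. The filter on dim values left 4 of the 6 members, NHERF1 and CDC42EP3 through the GREL arrays alone, and says nothing of their stability. At 4-fold NHERF1 and CDC42EP3 remained and EZR did not. The log2 difference kept its sign in 5 of the 6 genes, ranging from 1.7 to 1.8 for EZR, 2.4 to 2.5 for NHERF1, 2.47 to 2.60 for CDC42EP3, 0.25 to 0.40 for RDX and -0.8 to -0.6 for MSN. That of CDC42EP2 ranged from -0.1, at its dimmer probe set, to 0.7. The other 5 genes have 1 probe set each and the same sign in both isolates, so only the normalization settings could have changed their sign. The limma count was 0 with an intensity trend and quantile normalization again over 24016 probe sets, 0 with the filter on dim probe sets over 1673 and 0 by one-way ANOVA over 20503, but 1189 with a robust prior and a median of 647 over 20 draws that spread the values at random within the rounding step, with 353 to 973 over the single draws, so that this count depends on the draw. The cause of these 2 higher counts was not tested. Some counts of the related lists moved. With the mean over all probe sets, partners and scaffolds over 3-fold lower numbered 1 and other FERM proteins over 3-fold lower 0. Without isolate 1 the other CDC42 effectors over 3-fold higher numbered 2, as did other FERM proteins, and without isolate 2 the CDC42 regulators over 3-fold higher numbered 1. Above the upper background level lay 3 members in both isolates and 2 in the fibroblasts, and above the lower one 6 and 5. The folds of genes dim in 1 group are uncertain, and 1 array gives no spread between fibroblast cultures.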

Other observations

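In a few genes next to this pathway the 2 isolates differed from each other by more than the members did, all chosen after their values were seen. MYLIP, a FERM-domain ubiquitin ligase, was at 4.6 in GREL isolate 1 and 2.6 in isolate 2, with the fibroblasts between them at 3.4. The epithelial adhesion genes EPCAM and CDH1 were at 3.9 and 4.7 in isolate 1, 1.5 and 3.2 in isolate 2, and 1.0 and 3.6 in the fibroblasts, so that the epithelial markers were not equally far from the fibroblasts in both isolates. The collagen gene COL1A1 lay 1.0 log2 units below the fibroblasts in isolate 1 and 2.3 below in isolate 2. PAK1, a kinase effector of CDC42, was at 3.3 in isolate 1, 4.4 in isolate 2 and 3.4 in the fibroblasts, all dim.

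KIT, SST and CKM, from the marker and other-organ lists, were over 3-fold lower in both isolates. KIT, a receptor kinase, was at 1.5 and 2.7 in the isolates and 5.7 in the fibroblasts, and at another probe set at 1.6 and 1.8 in the isolates and 4.4 in the fibroblasts. Its 2 remaining probe sets were dim, at 1.5 and 1.7 in the isolates and 2.2 in the fibroblasts for one, and at 2.0 and 1.3 in the isolates and 1.1 in the fibroblasts, with the opposite sign, for the other. SST was at 2.0 and 1.8 in the isolates and 5.9 in the fibroblasts, and CKM at 2.5 and 2.4 in the isolates and 5.0 in the fibroblasts, below the lower background level on all 3 arrays. A second probe set of CKM was at 1.7 and 1.6 in the isolates and 1.5 in the fibroblasts, with the opposite sign.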
